A study of Mus musculus with 43 samples.

Results

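A set of 10 genes of the ERK pathway, 10 of the 52636 genes in the deposited tables, were followed through mouse colon organoids and colon fibroblasts treated with the multi-kinase inhibitor regorafenib, with 5-FU or with autogramin-2. They were taken by symbol from both tables and comprise the dual-specificity phosphatases Dusp4, Dusp5 and Dusp6, the Sprouty genes Spry1, Spry2 and Spry4, the ETS transcription factors Etv4 and Etv5, the AP-1 subunit gene Fosl1 and the co-repressor gene Nab2. All 10 passed the filter on low values in both tables (at least 200 CP20M in at least 2 libraries), and none was chosen for its values in these libraries, although earlier results of these data were known.

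ERK is the last kinase of the RAS, RAF and MEK cascade that carries signals from growth factor receptors to the nucleus, and in the gut epithelium it is driven largely by EGF receptor ligands, which organoid medium supplies. Active ERK induces its own inhibitors: DUSP phosphatases remove the activating phosphates from ERK and other MAP kinases, and Sprouty proteins act upstream, between the receptor and RAF. It also raises transcription factors of the ETS and AP-1 families and, through EGR factors, their co-repressor NAB2, so the RNA of these genes is widely read as an output of the pathway. Regorafenib inhibits receptor tyrosine kinases, including VEGF, PDGF and FGF receptors, as well as RAF kinases.

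The organoid table held 24 bulk RNA libraries from 6 lines, each from 1 mouse. Colonoids (lines M41, M40 and M1) came from Vil-cre/ERT2/Apcwt/wt mice and tumoroids (F11, M3 and M14) from Vil-cre/ERT2/Apcflox/flox mice. All were adult and had been given tamoxifen in vivo, so that the control animals carried the Cre and the tamoxifen as well, and the Villin promoter limited recombination of Apc to the gut epithelium. Each line was grown for 6 days with vehicle (Ve, DMSO), 4 µM regorafenib (R4), 8 µM regorafenib (R8) or 1 µM 5-FU, a fluoropyrimidine used against colorectal cancer. The fibroblast table held 19 libraries from 4 lines of wild-type C57B/6 mouse colon, M3 (not the tumoroid M3), M3(2), M1(2) and M11. These were grown for 7 days with Ve, R4, 1 µM autogramin-2 (A1), an inhibitor of autophagosome formation that binds GRAMD1A, or both drugs (R4A1). The lines other than M11 also received 10 µM regorafenib (R10). The study's own list of fibroblast lines names M3 and M3(2) but not M1(2) or M11.

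Values are CP20M, counts scaled to a total of 20000000 per library, so that 20 CP20M is 1 CPM. Between 4371812 and about 22370021 reads were recovered in 23 organoid libraries and between 7949957 and 12825919 in fibroblasts. The M41 R4 library held only 512592, and there the 10 genes rested on 4 (Spry4) to 175 (Dusp4) reads. Its highest gene alone took 2150570 CP20M, against 206678 to 682075 for the highest gene in the other 23 organoid libraries. Organoid libraries had RNA of all 10 epithelial markers, with summed levels of 112803 to 363135 CP20M. Krt20 was low among them, with a median of 89 CP20M, against 94 in fibroblast libraries. Of the fibroblast and endothelial markers, Lum and Emcn were at 0 in every organoid library. Others were present, with Vim at up to 2505 CP20M, Col1a1 at up to 118 and Vwf at 14 to 103. Fibroblast libraries had summed fibroblast markers of 164946 to 260045 CP20M and at most 3 CP20M of Epcam or of Krt8, although their epithelial markers summed to 213 to 1636 CP20M, with Krt19 (162 to 1512 CP20M) and Krt20 (15 to 213 CP20M) in every library. They also had summed endothelial markers of 997 to 28155 CP20M, the highest in M3(2) R4, and macrophage markers of 509 to 6188 CP20M, the highest in M11 Ve. Apc had 1542 to 4944 CP20M in colonoids and 3813 to 6032 in tumoroids, but counts over the whole gene include exons outside the deleted part and so do not check the deletion. In bulk RNA, fewer cells of a type and less RNA per cell cannot be told apart.

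The genes lie on 8 chromosomes (GRCm38), with Dusp6 and Nab2 both on chromosome 10 and Dusp5 and Fosl1 both on chromosome 19. Promoter sequences of 250 bases before the start of transcription were found in RefSeq (GRCm38.p6) for 6 of the 10 genes. Those of Dusp5 and Dusp6 are shown because these phosphatases were lower at R8 and not at R4, Nab2 because it fell in most regorafenib comparisons and Etv5 because it moved against Nab2 with regorafenib in organoids. Capitals mark 2 adjoining CArG boxes, the motif of serum response factor, that begin 82 and 72 bases before the start of Dusp5. The other promoters are in lower case throughout. They are written 5′ to 3′ on the strand of the gene. Etv5 has 2 promoters in RefSeq, and the upstream one is shown. The Nab2 window lies within Nab2 as annotated in GENCODE M21 (127660918 to 127668568), downstream of the start given there. Those of Dusp5 and Etv5 run in part past the starts given there (53529109 and 22439719). Distances of the boxes are from the RefSeq start.
Dusp5, chr19:53528895-53529144, plus strand: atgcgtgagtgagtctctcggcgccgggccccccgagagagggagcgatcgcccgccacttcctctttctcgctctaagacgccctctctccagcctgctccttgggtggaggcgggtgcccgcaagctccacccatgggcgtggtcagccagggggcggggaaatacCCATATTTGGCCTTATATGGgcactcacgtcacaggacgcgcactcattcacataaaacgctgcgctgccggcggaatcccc
Dusp6, chr10:99262981-99263230, plus strand: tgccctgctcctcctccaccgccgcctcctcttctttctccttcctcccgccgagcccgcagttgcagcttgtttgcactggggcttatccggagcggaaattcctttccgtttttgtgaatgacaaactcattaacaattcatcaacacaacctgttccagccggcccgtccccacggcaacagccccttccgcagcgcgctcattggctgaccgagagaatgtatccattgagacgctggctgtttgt
Nab2, chr10:127666704-127666953, minus strand: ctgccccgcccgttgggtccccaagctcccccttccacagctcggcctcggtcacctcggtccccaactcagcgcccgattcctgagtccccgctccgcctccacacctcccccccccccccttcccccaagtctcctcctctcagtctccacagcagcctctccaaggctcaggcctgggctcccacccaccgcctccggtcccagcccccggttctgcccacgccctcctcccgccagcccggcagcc
Etv5, chr16:22439571-22439820, minus strand: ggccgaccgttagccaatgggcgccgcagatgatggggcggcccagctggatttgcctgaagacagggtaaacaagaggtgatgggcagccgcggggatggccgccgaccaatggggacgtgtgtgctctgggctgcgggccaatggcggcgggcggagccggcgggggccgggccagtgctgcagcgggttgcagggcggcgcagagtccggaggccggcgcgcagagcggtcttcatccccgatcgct
Searched on both strands, a CArG box occurred in 1.47% of 32851 RefSeq promoters of this length. That motif was added to the search after the sequences were seen, so this share is no test of the Dusp5 boxes. The ETS core CCGGAA occurred in 12%, the AP-1 site TGANTCA in 6.75%, the CRE TGACGTCA in 1.55% and the EGR1 site GCGTGGGCG in 0.536%, and none of these 4 was found in the 7 promoters of the 6 genes. Motif matches describe letters in this window and say nothing about binding.

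Per kilobase of exon, Dusp6, an ERK-specific phosphatase of the cytoplasm, stood highest in Ve organoids, at 2060 ± 524 CP20M per kb (SD, n = 6), above Spry2 at 931 ± 215. Below Spry2, the neighbours Dusp4, Dusp5, Nab2, Fosl1, Spry1, Etv4 and Etv5 overlapped in range, down to Etv5 at 109 ± 18.7, and Spry4 was lowest at 39.1 ± 13.5 CP20M per kb. In Ve fibroblasts Spry2 (1630 ± 430 CP20M per kb, n = 4) and Dusp4 (1520 ± 448) overlapped at the top, followed by Nab2 (576 ± 49.0), and Dusp6 (436 ± 86.7) came next. Etv4 was the lowest there, at 102 ± 23.1 CP20M per kb.

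**Figure D1:**
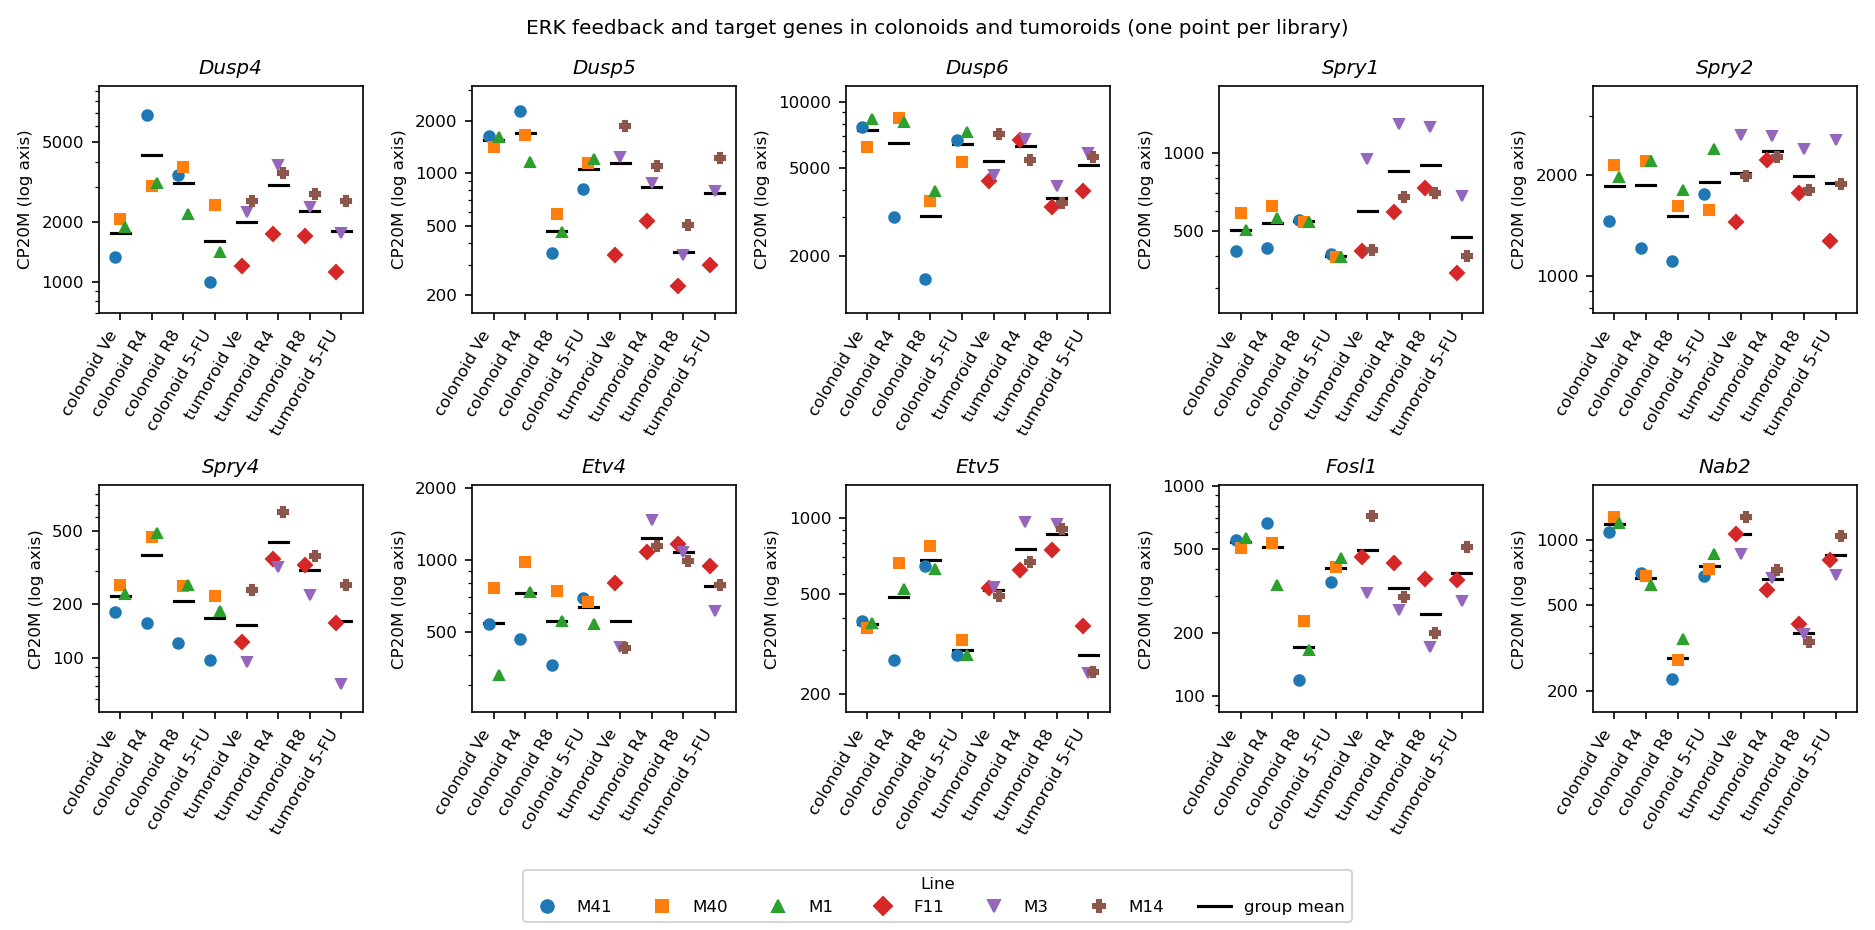
CP20M on a log axis (a scale of its own for each gene) of the 10 genes in the 24 organoid libraries, with 1 point per library, symbols for the 6 lines and bars for group means of 3 libraries. Nab2 is lower in all 12 regorafenib libraries (227 to 721 CP20M) than in the 6 Ve libraries (862 to 1275 CP20M), whereas Etv5 is higher in all 6 R8 libraries than in any Ve library.

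Regorafenib against Ve in the organoids addressed how the drug acts on colon epithelium. Over both doses and genotypes, Dusp4 and Etv4 rose, Fosl1 and Nab2 fell, and the other 6 genes did not pass. A gene was called at an adjusted p under 0.05 and a fold change of at least 1.5 in either direction (limma on log2(CP20M + 20), Benjamini-Hochberg over 11562 genes). By the same rule 16.9% of all genes tested were called, against 4 of the 10. The median log2 fold change of the 10 was 0.16 and that of all genes was −0.11. Blocked by line, Dusp5 (−0.81, adjusted p = 0.0536 without the block and 0.00173 with it) and Spry4 (0.71, adjusted p = 0.0601 and 0.000901) were called as well, where 19.3% of all genes were. Both were also called without the shallow library (−0.87, adjusted p = 0.0327, and 0.84, adjusted p = 0.0114), as was Etv5. This gave 7 of the 10, where 18.3% of all genes were called. At R8, 5 of the 10 were called (1 up and 4 down, where 17.7% of all genes were called), and at R4, 4 of the 10 (3 up and 1 down, 14.9% of all genes).

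Among the phosphatases, Dusp5, an ERK-specific phosphatase of the nucleus, had 1630, 1413 and 1616 CP20M in Ve colonoids (in the order M41, M40, M1) and 341, 1239 and 1858 in Ve tumoroids (F11, M3, M14). At R4 it had 2263, 1656 and 1163 CP20M in colonoids and 531, 880 and 1103 in tumoroids. In M41 this was above every Ve library and in M1 below every Ve colonoid, and the R4 and Ve ranges overlapped in both genotypes. At R8 it had 350, 586 and 463 in colonoids and 226, 340 and 503 in tumoroids. All 3 R8 colonoids were below every Ve colonoid, while in tumoroids the groups overlapped through F11, which was low in Ve already. Dusp5 fell at R8 by 1.56 on the log2 scale (95% interval −2.31 to −0.82, adjusted p = 0.00309 by limma) in 6 of 6 lines, whereas its difference at R4 was −0.06 (−0.81 to 0.68, adjusted p = 0.916).

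Dusp6 ranged from 4383 to 8427 CP20M in Ve organoids (median 6742), from 3005 to 8484 at R4 (median 6746) and from 1565 to 4174 at R8 (median 3511). Every R8 library was below every Ve library, and the lowest R4 value was that of the shallow M41 library, on 77 reads. It fell at R8 by 0.97 (−1.48 to −0.45, adjusted p = 0.00642 by limma, 6 of 6 lines), a call lost without line M14 (−0.84, adjusted p = 0.0645), and its difference at R4 was −0.04 (−0.55 to 0.47, adjusted p = 0.929).

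Dusp4, a nuclear phosphatase of ERK and other MAP kinases, went the other way. It had 1336, 2065 and 1872 CP20M in Ve colonoids and 6828, 3029 and 3113 at R4, so the groups did not overlap. In tumoroids it had 1199, 2239 and 2532 in Ve and 1740, 3855 and 3516 at R4, higher in each line but with overlapping ranges. It rose over both doses by 0.71 (SE 0.25, adjusted p = 0.0378 by limma) and at R4 by 0.90 (SE 0.29, adjusted p = 0.0304), in 6 of 6 lines both times, and at R8 the difference was 0.52 (−0.08 to 1.12, adjusted p = 0.2). The call, but not the direction, depended on single lines. Over both doses Dusp4 was not called without M41 (0.50, adjusted p = 0.135), M3 (0.70, adjusted p = 0.111) or M14 (0.74, adjusted p = 0.0798). At R4 the call was lost without the shallow library alone (0.71, adjusted p = 0.0622) and without those lines (adjusted p 0.0764 to 0.132).

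Of the Sprouty genes, only Spry4 was called in any organoid comparison without the block by line. It had 180, 254 and 225 CP20M in Ve colonoids and 123, 96 and 236 in Ve tumoroids. At R4 it had 157, 465 and 490 in colonoids and 352, 316 and 638 in tumoroids, where all 3 R4 values exceeded all 3 Ve values. The only line without an increase was M41, with 4 reads. Spry4 rose at R4 by 1.00 (SE 0.32, adjusted p = 0.0317 by limma, 5 of 6 lines), a call lost when M40, M1, F11, M3 or M14 was left out (0.87 to 1.01, adjusted p 0.0598 to 0.115) and stronger without the shallow library (1.25, adjusted p = 0.00454). At R8 it ranged from 121 to 367 CP20M and the difference was 0.43 (adjusted p = 0.361). Spry1 had differences of 0.31 at R4 and 0.38 at R8 (adjusted p 0.342 and 0.245), and Spry2 of 0.12 and −0.15 (adjusted p 0.702 and 0.633). In Spry2, the most abundant of the 3 genes, Ve ranged from 1449 to 2641 and R8 from 1105 to 2388 CP20M, and these overlapped.

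Etv4 and Etv5, ETS factors of the PEA3 group, were higher with the drug. Etv4 had 803, 431 and 429 CP20M in Ve tumoroids, 1079, 1470 and 1149 at R4 and 1169, 1083 and 996 at R8, and the treated tumoroids were all above the Ve tumoroids. In colonoids it had 538, 763 and 329 in Ve, 469, 982 and 735 at R4 and 365, 744 and 554 at R8, and these ranges overlapped. Etv4 rose over both doses by 0.66 (SE 0.19, adjusted p = 0.0145 by limma) and at R4 by 0.80 (SE 0.22, adjusted p = 0.015), in 5 of 6 lines both times, and at R8 the difference was 0.52 (adjusted p = 0.0916). Without M1, M3 or M14 the call over both doses was lost (0.49, 0.56 and 0.61, adjusted p 0.104, 0.0942 and 0.0845), as was that at R4 (0.63 to 0.75, adjusted p 0.084 to 0.108).

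Etv5 had 389, 367 and 385 CP20M in Ve colonoids and 529, 531 and 491 in Ve tumoroids. At R8 it had 647, 776 and 627 in colonoids and 745, 945 and 902 in tumoroids, and no R8 value reached down to a Ve value. Etv5 rose at R8 by 0.76 (0.40 to 1.12, adjusted p = 0.00278 by limma) in 6 of 6 lines. At R4 the difference was 0.38 (adjusted p = 0.114), with 274 CP20M, on 7 reads, in the shallow M41 library and 525 to 964 in the other 5. Over both doses Etv5 differed by 0.57 (SE 0.15, adjusted p = 0.00701), under the fold threshold, and without the shallow library it was called (0.66, adjusted p = 0.000115).

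Fosl1, which encodes the AP-1 subunit FRA1, ranged from 308 to 718 CP20M in Ve organoids (median 526.5), from 255 to 664 at R4 (median 382.5) and from 119 to 361 at R8 (median 185.5). The 3 R8 colonoids, 119, 226 and 165 CP20M, were below all Ve colonoids, and in tumoroids the R8 values of 361, 171 and 200 overlapped Ve through the 308 of Ve M3. Fosl1 fell at R8 by 1.27 (−1.75 to −0.79, adjusted p = 0.000477 by limma, 6 of 6 lines) and over both doses by 0.80 (SE 0.20, adjusted p = 0.00537), the latter not called without M14 (−0.61, adjusted p = 0.0589). At R4 the difference was −0.32 (adjusted p = 0.321).

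Nab2, a co-repressor of EGR transcription factors that they induce, had the smallest adjusted p of the 10 with regorafenib in organoids, over both doses and at each dose with the genotypes pooled. It had 1087, 1267 and 1197 CP20M in Ve colonoids and 1058, 862 and 1275 in Ve tumoroids. At R4 it had 703, 681 and 618 in colonoids and 585, 663 and 721 in tumoroids, and at R8 it had 227, 277 and 348 in colonoids and 406, 365 and 338 in tumoroids. The 3 conditions did not overlap in either genotype. Nab2 fell at R4 by 0.74 (−1.01 to −0.47, adjusted p = 0.000607 by limma) and at R8 by 1.73 (−2.0 to −1.47, adjusted p = 4.59e-08), in 6 of 6 lines each. These calls held in all 16 alternatives tried at each dose.

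Nab2 lies on the minus strand of chromosome 10 and shares 1646 bases with Gm16229, an antisense transcript that ran from 129 to 641 CP20M in organoids and moved with it (−1.14, adjusted p = 1.95e-05 by limma over both doses). It also shares 1668 bases with Nemp1 on the opposite strand (−0.81, adjusted p = 0.0173). Fosl1 shares 2767 bases with Ccdc85b on the opposite strand, whose difference was −0.17 (adjusted p = 0.738). Whether counting used strand is not given in the sources used here, and the part of these overlaps in the results was not tested.

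**Figure D2:**
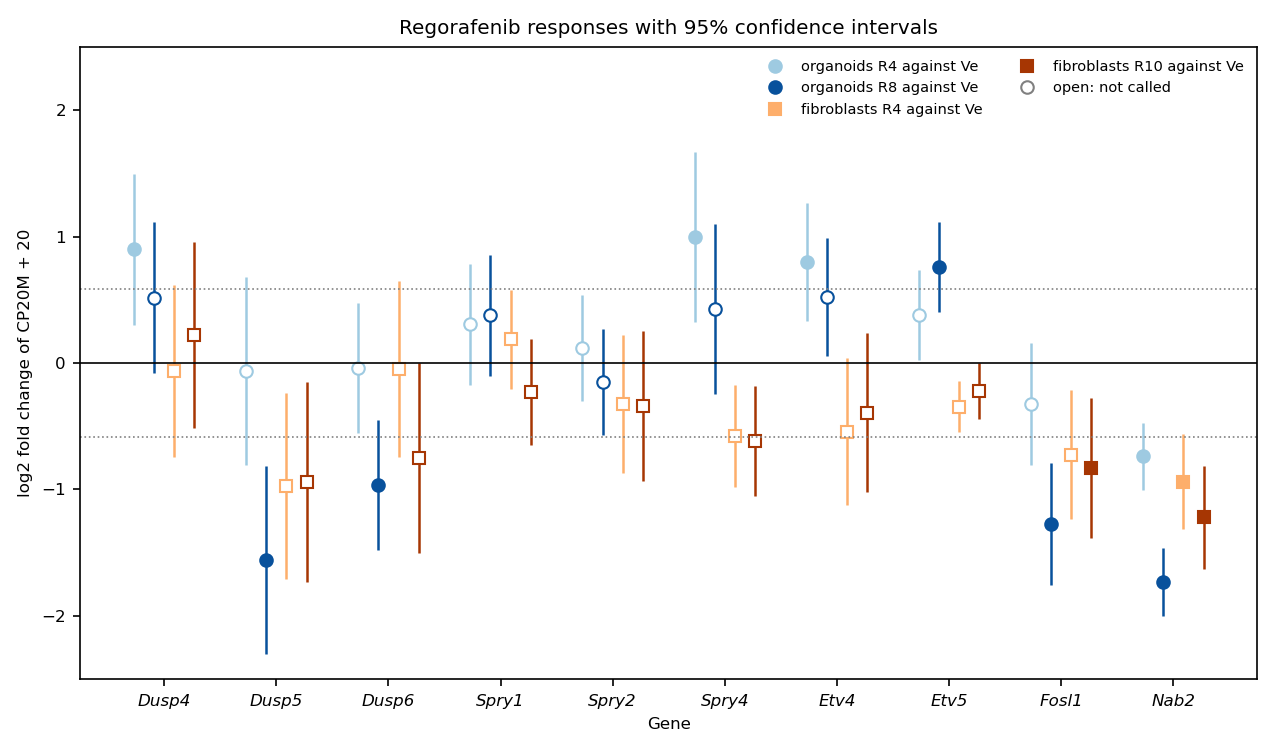
Log2 fold changes of CP20M + 20 with 95% confidence intervals (vertical lines) for the 10 genes, for R4 and R8 against Ve in organoids (circles) and R4 and R10 against Ve in fibroblasts (squares). Filled symbols passed the adjusted p and the fold threshold (dotted lines at 1.5-fold), and Nab2 is filled in all 4 comparisons, from −0.74 to −1.73.

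The doses were compared directly to see which genes depended on the dose in organoids. Dusp5 (−1.5, SE 0.36, adjusted p = 0.0464 by limma) and Nab2 (−0.99, SE 0.13, adjusted p = 0.00126) were lower at R8 than at R4, in 6 of 6 lines each, 2 of the 10 where 0.848% of all genes were called. Fosl1 (−0.95, adjusted p = 0.0506), Dusp6 (−0.93, adjusted p = 0.0684), Spry4 (−0.57, adjusted p = 0.359) and Spry2 (−0.27, adjusted p = 0.482) were also lower in 6 of 6 lines without passing. The share of all genes lower in 6 of 6 lines was not counted, so this does not set these genes apart. In a fit blocked by line, 4 were called, with Dusp6 (adjusted p = 0.0213) and Fosl1 (adjusted p = 0.0134) added, where 3.35% of all genes were called. The Dusp5 call was lost without the shallow library (−1.38, adjusted p = 0.0593), where Dusp6 was called instead (−1.17, adjusted p = 0.00709), and without M41, M40, M1, M3 or M14 (adjusted p 0.0861 to 0.249).

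Within colonoids, Fosl1 (−0.86, adjusted p = 0.0415 by limma) and Nab2 (−1.40, adjusted p = 2.31e-05) fell with regorafenib, 2 of the 10 where 14.6% of all genes were called. Dusp4 (1.01, adjusted p = 0.0539) and Dusp6 (−0.86, adjusted p = 0.0534) lay just outside. Blocked by line, 5 were called, adding Dusp4 (adjusted p = 0.0124), Dusp5 (adjusted p = 0.0213) and Dusp6 (adjusted p = 0.0233), where 19.9% of all genes were called. Leaving out any of the 3 colonoid lines ended the Fosl1 call (−0.70 to −1.03, adjusted p 0.0893 to 0.214), as did TMM scaling (adjusted p = 0.0941), and without the shallow library Etv5 was also called (0.71, adjusted p = 0.00265). At R4 alone, Nab2 was called in colonoids (−0.81, adjusted p = 0.0095 by limma, 3 of 3 lines), 1 of the 10 where 10.2% of all genes were called, and the call was lost without M40 (adjusted p = 0.0558) or M1 (adjusted p = 0.0625), while 2 genes were called without the tumoroid line F11. At R8, 5 of the 10 were called where 15.3% of all genes were, each in 3 of 3 lines. Dusp5 (−1.72, adjusted p = 0.0233), Dusp6 (−1.40, adjusted p = 0.00935), Fosl1 (−1.59, adjusted p = 0.0025) and Nab2 (−2.0, adjusted p = 2.13e-06) fell and Etv5 rose (0.81, adjusted p = 0.0265). Leaving out a colonoid line ended the Dusp5 call (adjusted p 0.0997 to 0.144), as leaving out M40 or M1 did that of Etv5 (adjusted p 0.16 and 0.0945). Tumoroid lines share the estimate of the spread. With M3 or M14 left out, 1 at a time, the calls of Dusp5 (adjusted p = 0.0522) and Etv5 (adjusted p = 0.0583) were also lost. That of Dusp5 was not lost in both of these refits.

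Within tumoroids, Etv4 rose (1.09, adjusted p = 0.0162 by limma, 3 of 3 lines) and Nab2 fell (−1.07, adjusted p = 0.000519), 2 of the 10 where 7.78% of all genes were called. Spry4 had the largest difference, 1.2, without passing (adjusted p = 0.0612). Blocked by line, 4 were called, adding Spry4 (adjusted p = 0.000706) and Dusp5 (−0.80, adjusted p = 0.0336), where 12.3% of all genes were called. The Etv4 call was lost without M3 (0.88, adjusted p = 0.203) or M14 (0.99, adjusted p = 0.2), and without the shallow colonoid library, which shares the estimate of the spread, 4 were called, with Spry4 (adjusted p = 0.0192) and Etv5 (0.61, adjusted p = 0.00849) added. At R4 alone, Etv4 (1.17, adjusted p = 0.042 by limma) and Nab2 (−0.67, adjusted p = 0.0434) were called in tumoroids, in 3 of 3 lines each, where 3.7% of all genes were called. Both calls were lost when any tumoroid line (adjusted p 0.0693 to 0.383) or the colonoid line M1 (adjusted p 0.0584 and 0.0612) was left out, as was that of Nab2 without M40 (adjusted p = 0.083). At R8 Nab2 was called (−1.46, adjusted p = 0.000106, 3 of 3 lines), 1 of the 10 where 6.23% of all genes were called. Etv4 (1.00, adjusted p = 0.0631), Etv5 (0.71, adjusted p = 0.0859), Fosl1 (−0.95, adjusted p = 0.0881), Dusp5 (−1.40, adjusted p = 0.107) and Dusp6 (−0.53, adjusted p = 0.434) did not pass there, though Dusp5, Dusp6 and Fosl1 were lower in 3 of 3 tumoroid lines. Blocked by line, 6 of the 10 were called at R8 in tumoroids, where 11.5% of all genes were, so which genes passed there depended on the block. Without M41 3 were called, and without M40 or F11 2 were.

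The genotypes were set against each other by the difference between their responses over both doses, and a difference at 1 dose was not tested. No gene of the 11562 was called (0%), so none of the 10 was, with limma and with edgeR, and 411 genes had an unadjusted p under 0.05. The intervals were wide. The response of tumoroids minus that of colonoids was 0.85 (0.04 to 1.66) for Etv4, 0.98 (−0.18 to 2.14) for Spry4, 0.72 (−0.17 to 1.61) for Dusp6, −0.59 (−1.63 to 0.44) for Dusp4 and 0.34 (−0.12 to 0.80) for Nab2.

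Between the genotypes in Ve, neither limma nor edgeR called any of the 10, where limma called 2.06% of all genes and 1920 genes had an unadjusted p under 0.05. Etv5 was higher in all 3 Ve tumoroids than in any Ve colonoid, but its difference of 0.42 did not pass (adjusted p = 0.404). Dusp5 (−0.73, adjusted p = 0.519) and Spry4 (−0.55, adjusted p = 0.599) had the widest differences. Line and genotype cannot be separated, since no line has both.

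With 5-FU, an antimetabolite, limma called none of the 10, where 2.35% of all genes were called and 1817 had an unadjusted p under 0.05. Nab2 had 678, 729 and 861 CP20M in colonoids and 805, 689 and 1044 in tumoroids, lower than Ve in 6 of 6 lines, a difference of −0.48 (−0.75 to −0.22, adjusted p = 0.0449 by limma) under the fold threshold. Etv5 had 242 to 373 CP20M with 5-FU, below its 367 to 531 in Ve but for F11, whose 373 CP20M lay within that range, and its difference of −0.58 (adjusted p = 0.0709) became a call with edgeR (−0.61, adjusted p = 0.0127) and with TMM scaling (−0.59, adjusted p = 0.0228). Etv5 thus lay below Ve with 5-FU and above it with R8 in 6 of 6 lines each.

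**Figure D3:**
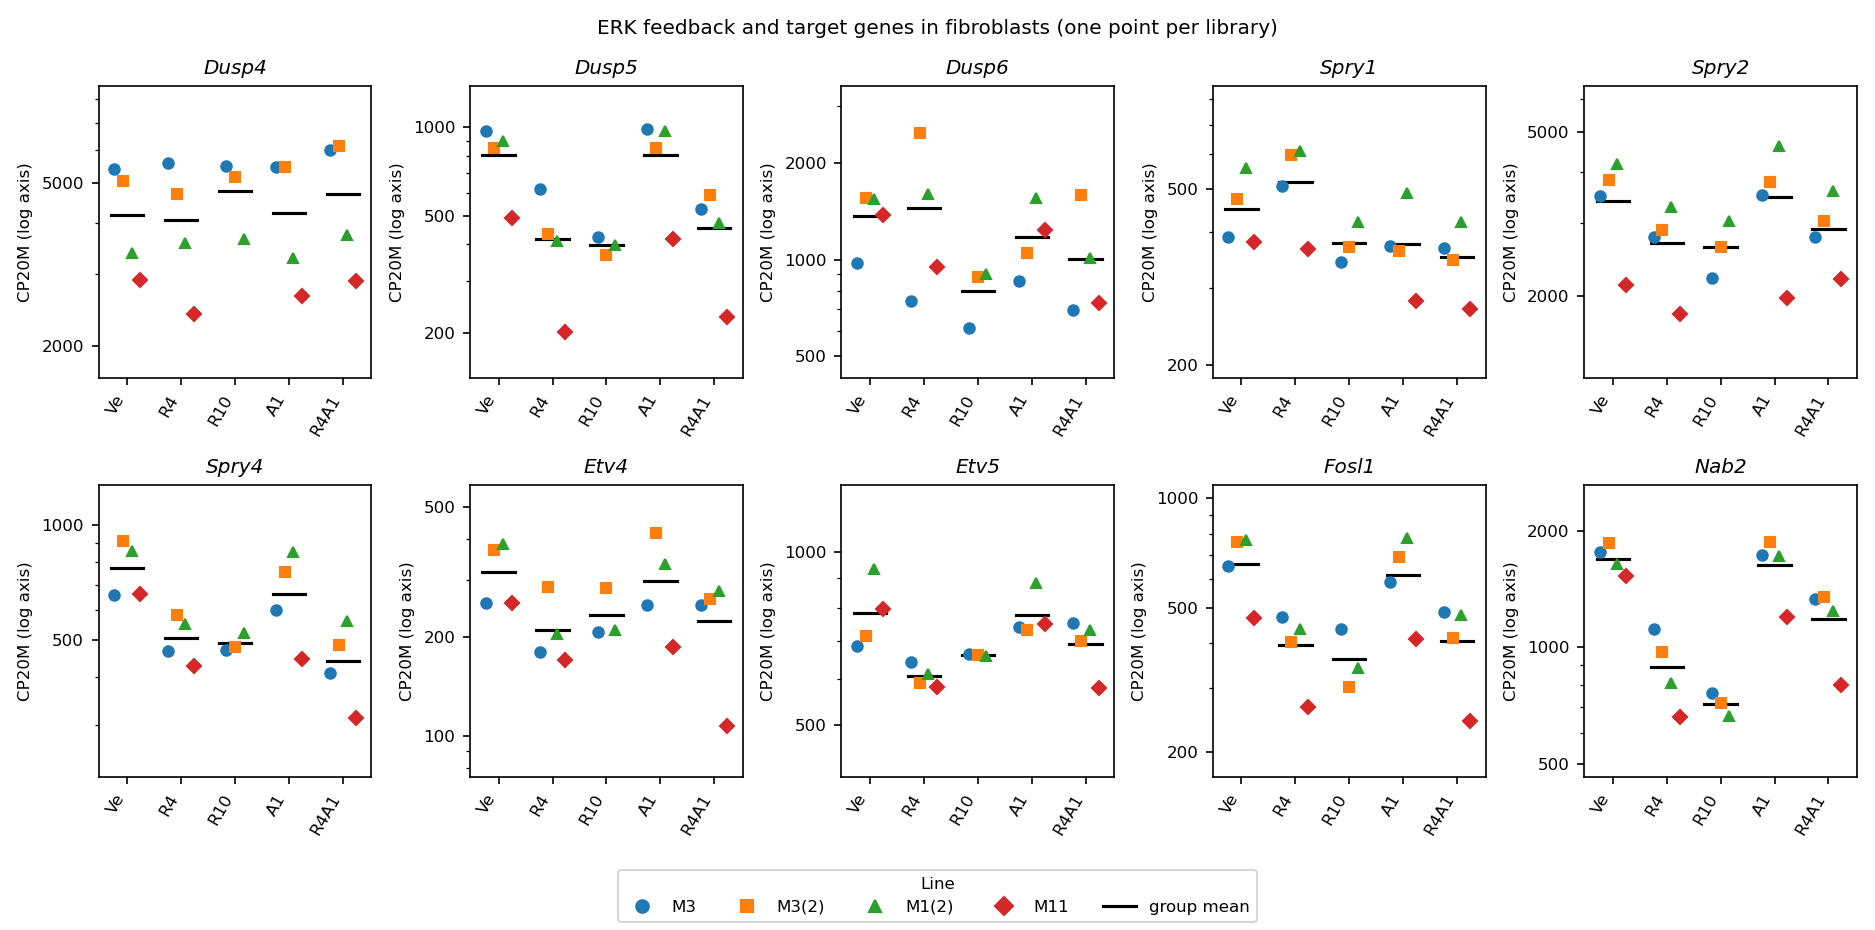
CP20M on a log axis (a scale of its own for each gene) of the 10 genes in the 19 fibroblast libraries, with 1 point per library, symbols for the 4 lines and bars for group means of 4 libraries (3 for R10). Nab2 lies at 660 to 1115 CP20M in R4 and 666 to 762 in R10, all below the 1524 to 1855 of Ve.

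Fibroblasts were treated to see how regorafenib acts on the stroma. At R4 Nab2 fell and the other 9 genes did not pass, 1 of the 10 where 1.02% of all genes were called. At R10 Nab2 and Fosl1 fell, 2 of the 10 where 7.33% of all genes were called. Apart from Dusp4, the 10 genes were lower than Ve in 3 of 3 lines at R10, and Dusp4 was higher in 3 of 3. Some of these drops were small, such as Etv5 in M3, from 687 to 663 CP20M. The share of all genes lower in 3 of 3 lines was not counted, so this does not set the 10 apart.

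Nab2 had 1760, 1855, 1638 and 1524 CP20M in Ve (M3, M3(2), M1(2) and M11), 1115, 970, 810 and 660 at R4 and 762, 716 and 666 at R10 (without M11). Both treated groups lay wholly below Ve. It fell at R4 by 0.94 (−1.32 to −0.56, adjusted p = 0.0113 by limma, 4 of 4 lines) and at R10 by 1.22 (−1.63 to −0.81, adjusted p = 0.000653, 3 of 3 lines). The R10 call held in all 12 alternatives, while at R4 it was lost without M3 (adjusted p = 0.0955), M3(2) (adjusted p = 0.11) or M1(2) (adjusted p = 0.239). Gm16229 moved with it here too (−0.82 at R4, adjusted p = 0.0488, and −1.20 at R10, adjusted p = 0.00191).

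Fosl1 had 653, 757, 769 and 467 CP20M in Ve, 471, 401, 437 and 266 at R4 and 437, 303 and 342 at R10. All R10 values lay below all Ve values, and at R4 only the Ve value of M11, 467, was below that of another line, the 471 of M3. It fell at R10 by 0.83 (−1.38 to −0.28, adjusted p = 0.0428 by limma), a call lost without M3 (−0.97, adjusted p = 0.143), M3(2) (−0.65, adjusted p = 0.384) or M1(2) (−0.72, adjusted p = 0.263), and at R4 the difference was −0.72 (adjusted p = 0.173).

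Dusp5 had 969, 852, 901 and 492 CP20M in Ve, 619, 432, 410 and 201 at R4 and 423, 369 and 399 at R10. M11 was the lowest line in both Ve and R4, and the R10 range lay below Ve. Its differences were −0.97 at R4 (adjusted p = 0.197 by limma) and −0.94 at R10 (adjusted p = 0.11). Blocked by line, Dusp5 (−0.97, adjusted p = 3.12e-06) and Fosl1 (adjusted p = 0.000109) joined Nab2 at R4, and Dusp5 (−1.21, adjusted p = 2.69e-07), Dusp6 (−0.81, adjusted p = 0.00547) and Spry4 (−0.73, adjusted p = 1.83e-05) joined Nab2 and Fosl1 at R10. Counts thus went from 1 to 3 and from 2 to 5, while the shares of all genes called went to 7.22% and 13.8%. Leaving out M11, the line with no R10 library, gave 3 and 4 calls, with Dusp5 at adjusted p of 0.00232 and 9.9e-05.

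Dusp6 had 976, 1555, 1548 and 1378 CP20M in Ve, 743, 2479, 1601 and 949 at R4 and 613, 883 and 905 at R10. The lines split at R4, higher in M3(2) and M1(2) and lower in M3 and M11, and the highest value, of M3(2), came from the library with the most endothelial marker RNA (28155 CP20M). The part of those markers was not tested. Dusp4 stayed within the spread between lines, at 2891 to 5398 CP20M in Ve, 2389 to 5596 at R4 and 3645 to 5508 at R10 (differences of −0.06 and 0.22, adjusted p 0.965 and 0.746).

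Spry4 had 658, 910, 859 and 663 CP20M in Ve, 470, 582, 553 and 429 at R4 and 472, 480 and 521 at R10. Neither treated group overlapped Ve, but the differences of −0.58 (adjusted p = 0.166 by limma) and −0.62 (adjusted p = 0.0542) did not pass. Etv5 showed the same with smaller differences, from 687 to 932 CP20M in Ve to 581 to 644 at R4 and 660 to 663 at R10 (−0.34 and −0.22, adjusted p 0.0909 and 0.175). Etv4 was lower in each line (−0.54 at R4 and −0.39 at R10, adjusted p 0.403 and 0.443), with 254 to 386 CP20M in Ve, 171 to 284 at R4 and 208 to 282 at R10. Spry2, at 2130 to 4185 CP20M in Ve, had differences of −0.32 and −0.34 (adjusted p 0.652 and 0.492), and Spry1, at 381 to 558, of 0.19 and −0.23 (adjusted p 0.728 and 0.517).

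The fibroblast marker Pdgfra, a receptor that regorafenib inhibits, fell in the same comparisons (−2.51 at R4, adjusted p = 0.0459 by limma, and −3.03 at R10, adjusted p = 0.0055), 1 of the 10 fibroblast markers at R4. At R10 Col3a1 also fell (−1.43, adjusted p = 0.015), which made 2 of 10, and no fibroblast marker rose. The macrophage marker sum was 1204 to 6188 CP20M in Ve, 756 to 2090 at R4 and 609 to 673 at R10, and of the 2 macrophage markers tested none was called at R4 and Lyz2 fell at R10 (−2.60, adjusted p = 0.00806). The endothelial marker sum went from Ve to R4 from 1197 to 1930 CP20M in M3, from 10680 to 28155 in M3(2), from 2155 to 6885 in M1(2) and from 2942 to 8022 in M11. It was thus higher at R4 in 4 of 4 lines, and at R10 it was 1584 to 6450 CP20M. None of the 6 endothelial markers tested was called, and their median was 1.14 at R4 and −0.05 at R10. The part of these markers in the lower Nab2 and Fosl1 was not tested.

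Autogramin-2 alone, given to ask whether blocking autophagy acts on the stroma, gave no call among the 10 genes or the 11032 by limma (0%), with 120 genes at an unadjusted p under 0.05, and none among the 10 by edgeR. The differences of the 10 lay between −0.26 (Spry1) and 0.01 (Spry2), and Dusp6 had an interval of −0.92 to 0.48 around −0.22. Added to R4, it again gave no call among the 10, where limma called 0.00906% of all genes (1 gene) and 622 had an unadjusted p under 0.05, and edgeR called none of the 10. Nab2 had 1336, 1347, 1237 and 800 CP20M in R4A1, higher than R4 in 4 of 4 lines (0.40, 0.02 to 0.78, adjusted p = 0.87), though still below every Ve library. Spry1 had 368, 347, 421 and 268 CP20M, lower than R4 in 4 of 4 lines (−0.53, −0.93 to −0.14, adjusted p = 0.87). Dusp6 was also lower in each line, at 699, 1585, 1014 and 735 CP20M (−0.43, adjusted p = 0.952). Between R4A1 and Ve, 1 of the 10 was called, where 1.66% of all genes were. Spry4 had 411, 485, 561 and 313 CP20M in R4A1, all below Ve, and fell by 0.79 (−1.20 to −0.39, adjusted p = 0.0341 by limma, 4 of 4 lines), a call lost without M3, M3(2) or M1(2) (−0.76 to −0.86, adjusted p 0.155 to 0.253) or with the Ve and R4A1 libraries alone (adjusted p = 0.0997). Nab2 differed by −0.54 (adjusted p = 0.12), also in 4 of 4 lines. Blocked by line, Dusp5 (−0.83, adjusted p = 1.57e-05) and Fosl1 (−0.70, adjusted p = 0.00013) were called as well, where 6.99% of all genes were, and without M11 also 3 were called. R4 and R4A1 were compared with the same Ve libraries.

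Other genes of the pathway were counted from 4 lists. Of 26 other ERK-responsive genes tested in organoids, 7 fell and 1 rose with regorafenib over both doses, and their median was −0.40 (all genes −0.11, 9.2% called down and 7.65% up). The immediate early genes Egr1 (−3.03, adjusted p = 4.9e-06 by limma) and Fos (−1.88, adjusted p = 2.35e-06) fell most, followed by Nab1 (−1.03), the paralogue of Nab2, and by Fosl2 (−0.93) and Myc (−0.89). The one that rose was Lif (0.82), a cytokine of the IL-6 family. At R8, 10 fell and none rose (8.87% of all genes in each direction), and Egr1 differed by −3.77.

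Of 12 other feedback inhibitors tested, 2 rose and 2 fell over both doses (7.65% of all genes up and 9.2% down). Spred3 (1.44, adjusted p = 2.04e-05 by limma), a relative of the Sprouty genes, and Dusp8 (0.93, adjusted p = 0.0274) rose, while Errfi1 (−1.29, adjusted p = 0.00139), an inhibitor of the EGF receptor, and Dusp10 (−1.14, adjusted p = 0.0151) fell. Of 28 genes of the cascade itself, 3 were called (16.9% of all genes). Rps6ka2, which encodes an ERK-activated kinase, rose (2.45, adjusted p = 2.08e-08), as did the ETS factor gene Elk1 (0.73, adjusted p = 0.000448), and Rps6ka3 fell (−0.85, adjusted p = 0.00218). In these libraries the epithelial markers Cdx2 (−1.89), Elf3 (−1.43) and Cldn7 (−0.65) fell, the other 7 of 10 not being called. The summed fibroblast markers went from 17 to 191 CP20M in Ve to 297 to 2520 at R4 and 449 to 2455 at R8, nearly all of it Vim (4.08), with Lum at 0 in all 24 libraries. Of the 3 macrophage markers tested Cd68 rose over both doses (1.60) and at R8 (2.83), where Cd14 fell (−0.91), and none was called at R4. Csf1r (352 to 625 CP20M) and Cd14 (261 to 2560 CP20M) were present in every library, while Ptprc was at most 7 CP20M, and the endothelial markers summed to at most 119 CP20M. The part of these changes in the results for the 10 genes was not tested.

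The last list holds the mouse orthologues of a published MAPK pathway activity score and shares 6 of its 10 genes with the set followed here, so it is not independent of it. Over both doses in organoids 2 rose, the members Dusp4 and Etv4, and none fell, with a median of 0.19 (all genes −0.11). At R4 3 rose, again all members, and none fell. At R8 the member Etv5 rose, and the member Dusp6 and Epha2 (−0.84, adjusted p = 0.0023 by limma), an ephrin receptor gene, fell. In fibroblasts none of its genes was called at R4, and at R10 Epha4 rose and none fell.

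In fibroblasts at R10, 3 of 29 other ERK-responsive genes fell, Plau (−1.89), Etv1 (−1.32) and Myc (−0.83), and Epha4 rose (1.00, limma), with a median of −0.21 (all genes −0.04, 4.09% called down and 3.25% up). Of 12 feedback inhibitors Errfi1 (−1.65) and Spred1 (−0.89) fell and Dusp8 rose (1.33), and of 28 cascade genes Rasa1 fell (−1.04). At R4 these lists held 1 called gene in each direction, Dusp8 (0.83) and Spred1 (−0.64), where 0.671% of all genes were called up and 0.354% down. With autogramin-2, alone or added to R4, limma called none of the genes of the 4 lists.

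**Figure D4:**
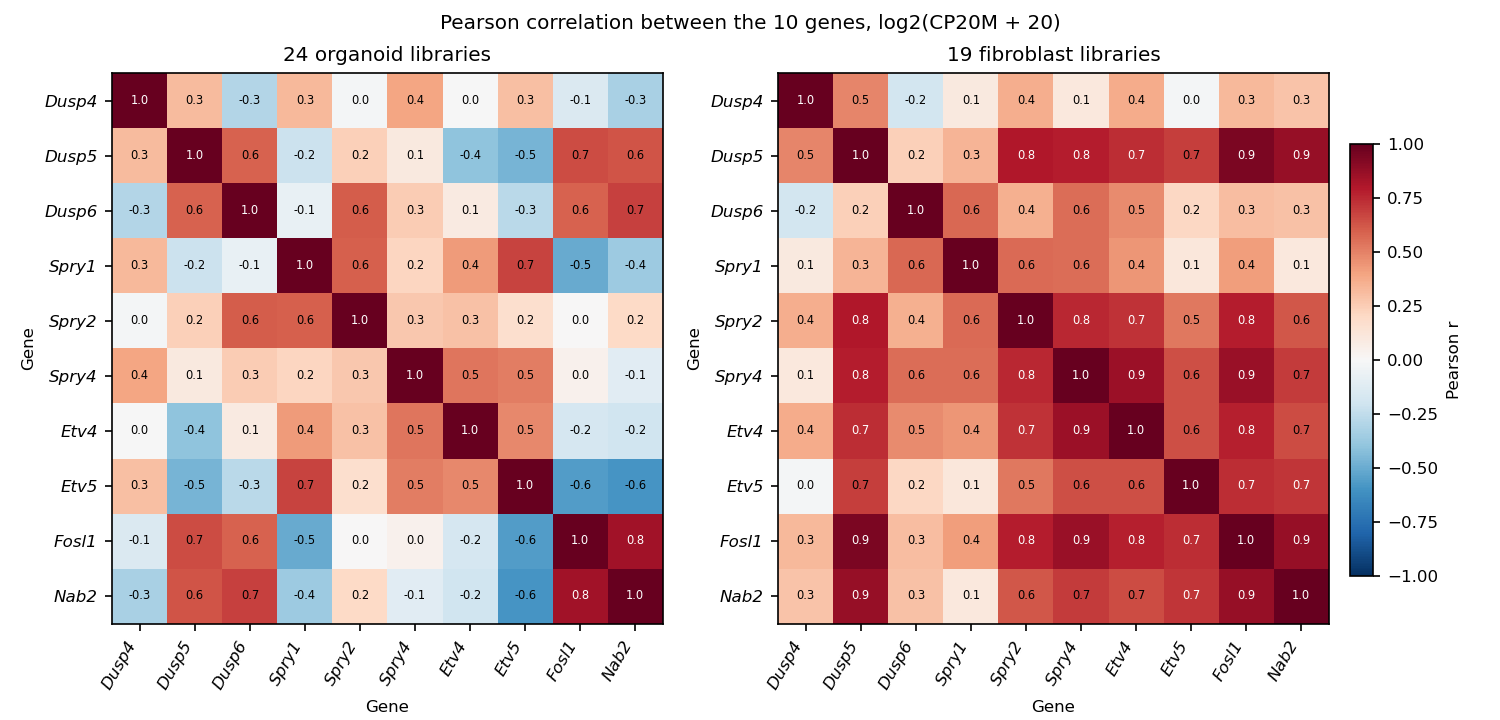
Pearson correlation of log2(CP20M + 20) between each pair of the 10 genes over the 24 organoid libraries (left) and the 19 fibroblast libraries (right), coloured from −1 (blue) to 1 (red). In organoids 28 of 45 pairs are positive and Etv5 runs against Fosl1 and Nab2, whereas in fibroblasts 43 of 45 are positive.

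Across all libraries of a table, the 10 genes varied together less in organoids than in fibroblasts. In the 24 organoid libraries the median r over 45 pairs was 0.20, the highest was that of Fosl1 with Nab2 (0.84) and the lowest that of Etv5 with Nab2 (−0.59). In the 19 fibroblast libraries the median was 0.56, the highest was that of Dusp5 with Fosl1 (0.94) and the lowest that of Dusp4 with Dusp6 (−0.19). Libraries share lines and treatments, so these values are descriptions. Pairs of other genes were not correlated, so the difference between the tables is not shown to be particular to the 10. The genes outside the group whose levels ran closest to the mean of the 10 were Hmga2 (r = 0.78), Mief1 (0.77), Sgms2 (0.73), Rasa1 (0.73) and Tspan5 (0.72) in organoids, and Sema3e (0.96), Hic1 (0.95), Rasa1 (0.95), Gm16897 (0.95) and Ltbp1 (0.95) in fibroblasts. Rasa1, which encodes a RAS GTPase-activating protein, was in both sets of 5.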

How the data were processed

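RNA was sequenced from 24 organoid and 19 fibroblast libraries. For each Ensembl gene and library the deposited tables give CP20M, a signal value. Per the submitters' processing notes, the authors trimmed reads (Trimmomatic 0.36), aligned them to GRCm38 (STAR 2.5.3a) and counted them (HTSeq 0.9.1), and the counts were scaled to 20000000 per library and rounded up. The values are not divided by gene length: each library has 1 step for genes of any length. Whole reads were recovered from that step, with 99.83% to 100.0% of values per library whole after rounding up. Where the step is below 1, as in tumoroid M3 R4 (0.8941 CP20M per read), any value counts as whole. The check cannot fail there, and read totals of libraries with a step near 1 are approximate. The sources name different library kits, and use of strand is not given in them. Samples were grouped by their labels, and 3 tumoroid 5-FU libraries titled colonoid by genotype label and library name.

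Values were analysed as log2(CP20M + 20) with limma 3.58.1 (R 4.3.3, trend, 1 coefficient per group, all libraries of a table). Genes with at least 200 CP20M in at least 2 libraries were tested (11562 in organoids, 11032 in fibroblasts), adjusted by Benjamini-Hochberg and called at 0.05 and 1.5-fold, or at 0.05 alone for the difference between genotypes. Fold changes on this scale understate those of low genes. The pooled comparison set the mean of the 4 regorafenib groups against the mean of the 2 Ve groups. edgeR 4.0.16 on the recovered reads was an added alternative (2188 genes called for regorafenib in organoids, 1949 by limma). The steps were tested on simulated data.

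Same-numbered libraries come from 1 line. Deviations from group means correlated at 0.50 on average within lines (0.01 to 0.89, 36 pairs) and −0.31 between lines in organoids, and at 0.72 and −0.25 in fibroblasts. Results of fits blocked by line are therefore given beside the main fits for several comparisons. At R8 in tumoroids and at R4 in colonoids only the number of calls is given, and the genes added by the block are not named. No 2 libraries shared over 0.662% of values.

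All 10 genes are named, with up to 6 called genes of each other list and the 5 genes most correlated with the mean of the 10. The 10 genes, the lists and the tests were chosen with earlier results of these data known. The search for CArG boxes was added after the sequences were seen. Gene positions are from GENCODE M21 (GRCm38), where all 10 identifiers matched.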

Additional observations from a re-analysis of the deposited data

Results flagged for a closer look

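A library far from the other 3 of its group was found in 3 of the 40 fibroblast groups of 4 checked, where chance gives about 1 in 20. In R4A1, line M11 had 107 CP20M of Etv4, against 251 to 277 in the other lines. It also had 800 CP20M of Nab2, against 1237 to 1347. In A1, line M1(2) had 883 CP20M of Etv5, against 732 to 748 in the other lines. Etv4, Nab2 and Etv5 were not called in the comparisons that use these groups.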

How the results depend on the processing

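No call of a gene or count changed direction. The numbers of the 10 genes called varied as follows, with the cause not tested. Percentages in brackets are the share of all genes called under the same setting. Counts without one here are numbers of calls only. Over both doses in organoids the count of 4 became 7 with edgeR (18.9%) and 7 without the shallowest library (18.3%). It became 1 at an adjusted p under 0.001 (6.8%) and 1 to 6 when a line was left out (13% to 16.4%). At R8 the count of 5 became 2 at 0.001 and 4 to 6 without a line, and at R4 the count of 4 became 1 at 0.001, 2 without the filter and 1 to 3 without a line. In colonoids the count of 2 became 5 with the replicate block by line (19.9%). It became 6 with the block and without the shallowest library (21.7%, chosen after seeing the data). It was 1 at 0.001 (2.47%), without the filter (5.23%) or with the 18 Ve and regorafenib libraries alone (13.3%). Without a line it was 1 to 4 (9.32% to 14.8%). In tumoroids the count of 2 became 4 with edgeR (10.8%), with TMM scaling (8.68%), with the block and without the shallowest library. It became 6 with the block and without that library, 1 at 0.001 and 1 to 4 without a line. Between the doses the count of 2 became 4 with edgeR (1.44%), TMM (1.32%) or the block. It became 5 with the block and without the shallowest library and 0 at 0.001. It was 1 without the filter or with 18 libraries and 1 to 2 without a line. With 5-FU the count of 0 became 1 with edgeR (3.69%) and TMM (2.53%). In fibroblasts the R4 count of 1 became 3 with the block and 0 at 0.001 or with the groups compared alone. Without a line it was 0 to 3. The R10 count of 2 became 5 with the block and 4 with the groups compared alone. It became 1 at 0.001, without the filter or with TMM (7.38%) and 1 to 4 without a line. For the comparisons within 1 genotype at 1 dose and for both drugs against Ve, all settings were added after seeing the data. At R4 in colonoids the count of 1 became 2 with TMM (10.9%), edgeR (9.08%), the block or without the shallowest library. It became 3 with the block and without that library, 0 at 0.001 and 0 to 2 without a line. At R8 in colonoids the count of 5 became 1 at 0.001 and 3 to 5 without a line. At R4 in tumoroids the count of 2 became 1 with TMM (4.73%). It became 0 at 0.001, without the filter or with 18 libraries and 0 to 3 without a line. At R8 in tumoroids the count of 1 became 3 with TMM (6.81%) and 4 with edgeR (8.8%) or without the shallowest library. It became 6 with the block, 7 with the block and without that library and 1 to 3 without a line. With both drugs in fibroblasts the count of 1 became 3 with the block, 0 at 0.001, without the filter or with the groups compared alone and 0 to 3 without a line. Where a line was left out, groups of 3 kept 2 libraries. No call of a gene was lost with the block alone, and no blocked fit was possible for the genotypes in Ve. The pseudocounts of 5 and 100 kept these counts within 1.5 times. Over all refits of single called genes, 394 kept the call and 102 lost it.

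TMM scaling moved the median of all genes by more than 0.1, from −0.16 to −0.05 at R4, from −0.15 to −0.04 in colonoids and from −0.23 to −0.05 at R4 in colonoids. The share of called genes that rose went from 38.6% to 55.3% at R4, from 39% to 52.9% in colonoids, from 32.3% to 52.1% at R4 in colonoids and from 51.0% to 34.0% between the doses. The shallowest library, with 512592 reads, limits Spry4, Etv5 and Spry1 in M41 R4, which rested on 4, 7 and 11 reads. Libraries of 1 line are cultures from 1 mouse, and 3 or 4 lines a group set the width of the intervals.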
